A study of Homo sapiens with 16 samples.

Results

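The 9 receptor genes described here were NTRK2, NTRK3, NGFR, RET, GFRA1, GFRA2, GFRA3, ALK and KIT, taken by their symbols from a table of 27037 genes. They were chosen as neurotrophic receptors of sympathetic cells together with ALK and KIT, and all 9 had a row in the table. Their transcripts were read from RNA-seq libraries of SK-N-BE(2)C, a single human neuroblastoma line of the adrenergic type with MYCN amplification. The 4 groups, each with 4 replicates, were cells given DMSO (the vehicle, in which both agents were dissolved), palbociclib at 1 µM (PB), all-trans retinoic acid at 10 µM (RA), or PB and RA together at those doses (PB+RA). RA is a retinoid that activates nuclear retinoic acid receptors, and PB inhibits the cell-cycle kinases CDK4 and CDK6. All groups were grown in the same serum-containing medium, and the study describes its biological replicates as separate passages of the line. The study gives a length of several days for the treatments with PB, RA and PB+RA.

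Neurotrophins act on sympathetic neurons through Trk receptor tyrosine kinases and through NGFR (p75NTR), a receptor without kinase activity that binds all mature neurotrophins and can modify Trk signalling. Ligands of the GDNF family bind a GFRA co-receptor anchored in the membrane by a lipid, and the complex then activates the kinase RET. ALK, mutated or amplified in part of neuroblastomas, and KIT, the receptor of stem cell factor, are receptor kinases of their own, and these pathways govern survival, neurite growth and maturation in the sympathetic lineage.

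RET was by far the most abundant of the receptor genes and rose further with PB+RA, while NGFR rose with each agent and most with both. NTRK2 and GFRA1 rose from very low levels with RA, and both stood lower in PB+RA than in RA. ALK and NTRK3 fell with RA alone, and neither was called with PB+RA. GFRA2, the main GFRA gene of these cells, passed the test in none of the 5 comparisons. KIT was close to absent.

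Each library held between 19.5 and 31.6 M counts, so that 3 counts, the number a count of 0 still allows, correspond to 0.0949 to 0.154 CPM (a gene's share of all counts of its sample, in parts per 1 M). Such limits cover counting error only. A principal component holding 10.8% of the variance set replicates 1 and 2 apart from replicates 3 and 4 within each group. Values within these sets are given for some, not all, of the results that they change. Of the line's 7 adrenergic markers (among them TH and DBH), all were present, with a summed level of 3774 to 4426 CPM in DMSO, 6165 to 7440 in PB, 3490 to 4681 in RA and 5105 to 8578 in the combination. CHGA was the largest part of this sum (1706 ± 256 CPM in DMSO, 3875 ± 737 in PB, 1475 ± 587 in RA and 3809 ± 1732 in PB+RA). TH and DBH rose with each treatment, CHGA rose with PB and PB+RA, and GATA3 rose with PB and fell with RA. The glial marker SOX10 had at most 3 counts in every sample, as had the endothelial marker PECAM1. The summed level of 6 of 7 mesenchymal markers (FN1, YAP1, SNAI2, COL1A1, TWIST1 and MEOX1, the last with at most 3 counts in every sample) was 227 to 377 CPM in DMSO, 207 to 310 in PB, 707 to 1139 in RA and 492 to 844 in PB+RA. This sum, higher in every RA and PB+RA sample than in every DMSO and PB sample, was mostly FN1 (175 ± 49.5 CPM in DMSO, 733 ± 157 in RA and 519 ± 148 in PB+RA), and the markers moved both ways. Of the 5 tested, FN1, YAP1 and COL1A1 rose with RA, while with PB+RA FN1 rose and SNAI2 and TWIST1 fell (log2 -0.70 and -0.65, adjusted p 0.0263 and 0.00468), and with PB YAP1, SNAI2 and TWIST1 fell. The part of these markers in the receptor changes with RA was not tested. In bulk RNA, fewer cells of a kind and less RNA per cell cannot be told apart.

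The start regions of 3 receptor genes that moved are shown because RA acts through receptors that bind DNA directly and because the line carries amplified MYCN. Each runs 5′ to 3′ on the gene's own strand over 300 bases around the RefSeq start site of GRCh38.p14. GFRA1 lies at chr10:116274656-116274955 on the minus strand, NTRK2 at chr9:84669056-84669355 on the plus strand and RET at chr10:43076819-43077118 on the plus strand. Capitals mark AGTTCA, read on either strand.
GFRA1: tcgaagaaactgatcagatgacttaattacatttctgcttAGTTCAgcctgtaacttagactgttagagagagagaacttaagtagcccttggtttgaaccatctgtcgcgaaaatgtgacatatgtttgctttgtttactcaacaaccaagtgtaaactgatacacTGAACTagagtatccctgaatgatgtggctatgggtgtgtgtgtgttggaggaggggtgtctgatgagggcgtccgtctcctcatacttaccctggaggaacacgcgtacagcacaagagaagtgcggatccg
NTRK2: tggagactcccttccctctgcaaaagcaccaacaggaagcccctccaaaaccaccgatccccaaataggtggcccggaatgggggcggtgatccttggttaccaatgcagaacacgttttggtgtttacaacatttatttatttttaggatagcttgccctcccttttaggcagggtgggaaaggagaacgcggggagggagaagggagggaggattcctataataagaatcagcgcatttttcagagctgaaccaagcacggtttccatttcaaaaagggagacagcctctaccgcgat
RET: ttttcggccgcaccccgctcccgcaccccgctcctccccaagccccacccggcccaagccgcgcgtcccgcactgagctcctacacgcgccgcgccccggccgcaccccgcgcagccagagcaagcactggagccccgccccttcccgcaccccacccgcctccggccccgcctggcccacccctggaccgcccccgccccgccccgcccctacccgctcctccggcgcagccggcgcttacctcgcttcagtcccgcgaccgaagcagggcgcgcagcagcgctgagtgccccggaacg

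Both strands were searched for the retinoid receptor sites AGGTCA and AGTTCA and for the E-box CACGTG, to which MYC proteins bind. GFRA1 held AGTTCA with its first base at position -210 on the gene's strand and again, on the other strand, at -83 relative to the start. NTRK2 and RET held none of these motifs, nor did NTRK3, GFRA3, ALK or KIT in their windows. Among 27305 RefSeq start regions of the same length, 22.8% held AGGTCA or AGTTCA, 10.5% held AGTTCA, 13.9% AGGTCA and 7.43% CACGTG. These shares are for at least 1 match, and the share with 2 was not computed. A match is a description of letters and not a binding site, and its absence covers only this window.

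The levels of the 9 genes were first compared per kilobase of exon, over all annotated isoforms together. In DMSO, RET stood at 170 ± 7.3 CPM per kb (SD, n = 4), NGFR at 24.3 ± 7.6 and GFRA2 at 15.2 ± 4.5. ALK followed at 1.11 ± 0.11 and GFRA3 at 0.408 ± 0.19. GFRA1, NTRK3 and NTRK2 were at 0.0862, 0.0214 and 0.00329 CPM per kb. RET ranked 30 of 27037 genes by CPM in DMSO. The means ± SD of NGFR and GFRA2 overlapped in DMSO, while RET lay far above both. Because the exons of NTRK2 and NTRK3 were summed over long alternative isoforms, their levels per kilobase are understated.

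Each agent and the combination were compared with DMSO to ask which receptor genes each changes, and PB+RA was compared with either agent alone to ask what the second agent adds. A gene was called at an edgeR quasi-likelihood Benjamini-Hochberg adjusted p below 0.05, over 15415 tested genes, and an absolute log2 fold change of more than 0.5. The test covered 8 of the 9 receptor genes, all but KIT. PB raised 1 of the 8 (NGFR) and lowered 0, where 16.9% of all tested genes were called higher and 11.3% lower. RA raised 3 (NTRK2, NGFR and GFRA1) and lowered 2 (NTRK3 and ALK), against 10.8% and 2.54% of all tested genes. PB+RA raised 3 (NTRK2, NGFR and RET) and lowered 0, against 24.0% and 17.9%.

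Between PB+RA and PB, 4 receptor genes were higher (NTRK2, NGFR, RET and GFRA1) and 0 lower, against 9.02% and 7.27% of all tested genes. Between PB+RA and RA, 2 were higher (NGFR and ALK) and 3 lower (NTRK2, GFRA1 and GFRA3), against 14.9% and 14.1%. The median log2 fold change of the 8 genes was 0.24 with PB, 0.86 with RA and 0.27 with PB+RA, beside medians over all tested genes of 0.03, 0.01 and 0.04. These comparisons share samples and are not independent of each other.

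**Figure D1:**
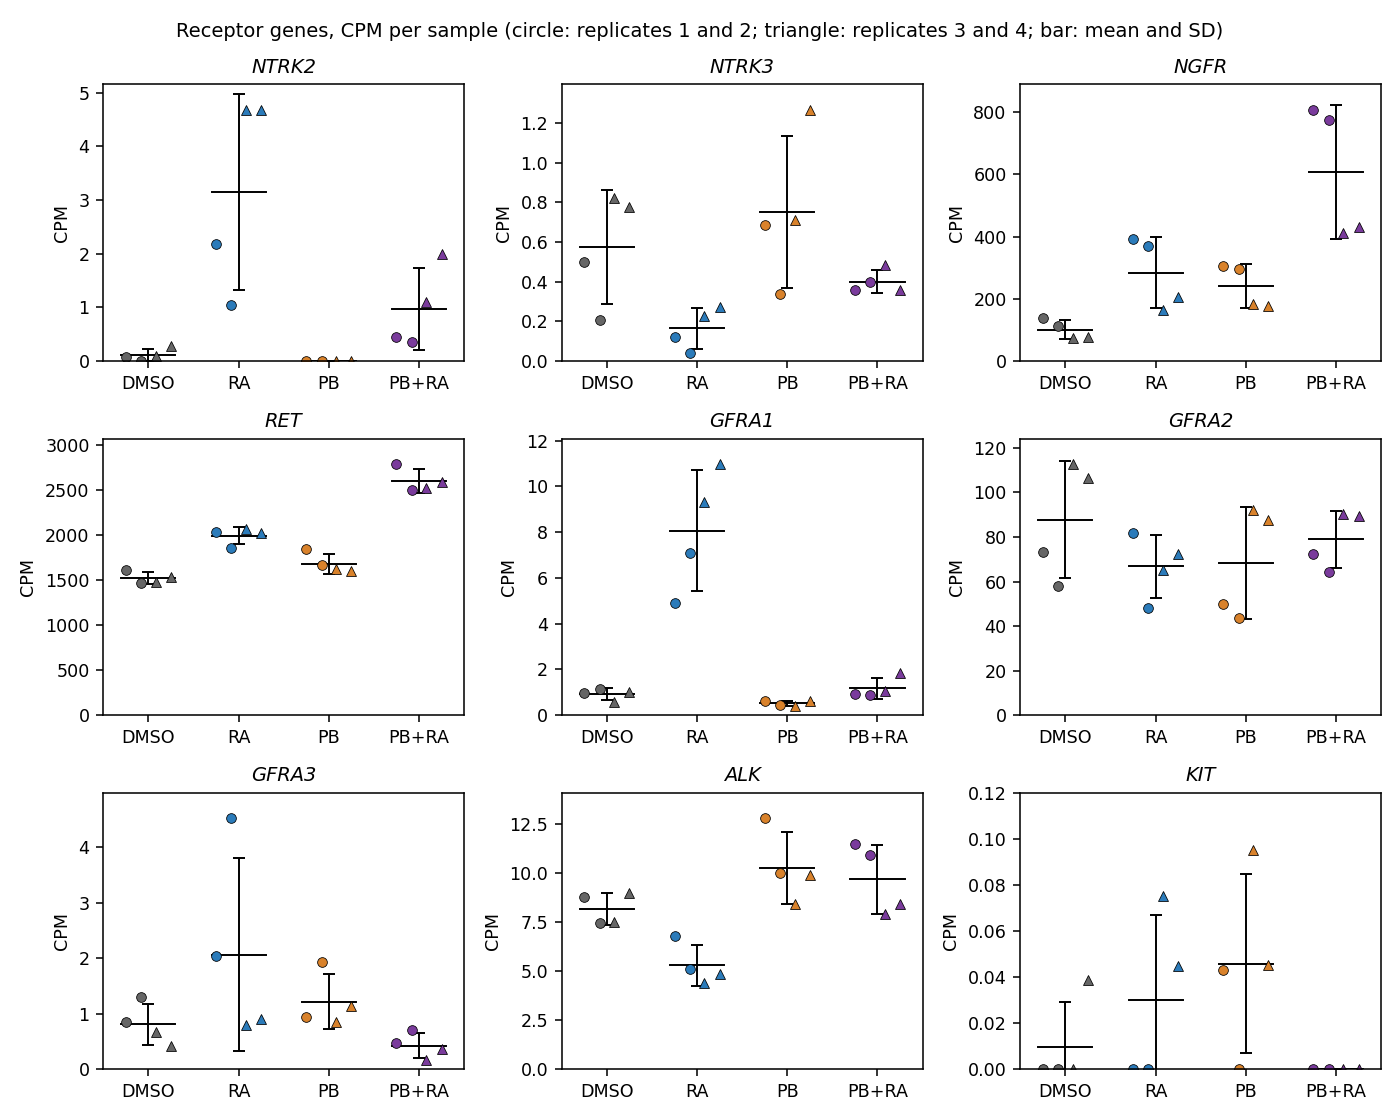
CPM (vertical axis, from 0, a scale per gene) of the 9 receptor genes in each of the 16 samples, by group; circles are replicates 1 and 2, triangles replicates 3 and 4, and the bars the mean and SD of 4 samples. NGFR stood highest in PB+RA in each replicate set, and NTRK2 and GFRA1 stood highest in RA.

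NTRK2 (chromosome 9, 87283290 to 87710666, GRCh37) encodes TrkB, the receptor of BDNF and NT-4. It had 2, 0, 3 and 7 counts in DMSO replicates 1 to 4 and 0 in all 4 PB samples. In RA, NTRK2 had 53, 26, 124 and 104 counts, and in PB+RA 11, 8, 27 and 39. Every RA and PB+RA sample therefore lay above every DMSO and PB sample. In CPM the RA samples were at 2.17, 1.05, 4.67 and 4.69, and the PB+RA samples at 0.437, 0.354, 1.09 and 2.00. NTRK2 rose with RA by 4.78 ± 0.78 on the log2 scale (SE, adjusted p 0.00054), and the PB+RA rise was 3.03 ± 0.86 (adjusted p 0.00751). The sizes of both are imprecise, since DMSO held 12 counts over 4 samples, with 95% intervals of 3.25 to 6.30 and 1.35 to 4.72. DMSO replicate 4 held 7 of them, and without it the rises were 5.60 and 3.86.

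With 3 counts over the PB group as the floor, the observed NTRK2 level was 3.16-fold above that floor in DMSO, 91.1-fold in RA and 26.8-fold in PB+RA. These ratios allow for counting error in PB only and not for error in the other group. Without DMSO replicate 4 the ratio for DMSO was 1.72-fold, from 5 counts, and leaving out any other sample gave 2.32 to 4.07-fold. The difference between PB+RA and PB was called (adjusted p 0.00299). That between PB and DMSO was not called (adjusted p 0.134), but it passed in DESeq2 (adjusted p 0.00935) and when the replicate number was a block (adjusted p 0.00478). NTRK2 was lower in PB+RA than in RA (log2 -1.74 ± 0.59, adjusted p 0.0238), in each of the 4 same-numbered pairs, although the CPM of both groups overlapped. This call was lost without RA replicate 3 (-1.46), RA replicate 4 (-1.47), PB+RA replicate 1 (-1.51) or PB+RA replicate 2 (-1.49), with adjusted p up to 0.0736, and without a filter on low counts (-1.74, adjusted p 0.0691). It was kept with the block (-1.78, adjusted p 2.00e-06). NTRK2 was lower in replicates 1 and 2 than in 3 and 4 in the groups where it was detected, at 0.344 of their mean CPM in RA.

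NTRK3 (chromosome 15, 88402982 to 88800022, GRCh37) encodes TrkC, the receptor of NT-3. It had 14, 5, 26 and 20 counts in DMSO and 3, 1, 6 and 6 in RA. In PB it had 16, 7, 15 and 28 counts, and in PB+RA 9, 9, 12 and 7. These are low counts, and the groups overlapped, since RA replicates 3 and 4 (0.226 and 0.270 CPM) lay above DMSO replicate 2 (0.204 CPM). NTRK3 fell by 1.81 ± 0.52 on the log2 scale with RA (adjusted p 0.0123), from a mean of 0.574 ± 0.286 to 0.165 ± 0.103 CPM. In replicates 1 and 2 alone the size was -2.07 and the call was lost (adjusted p 0.0784).

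With PB and PB+RA the NTRK3 changes were 0.37 (adjusted p 0.468) and -0.56 (adjusted p 0.285). The direction of NTRK3 with RA was opposite to that of NTRK2. Between PB+RA and RA all 4 PB+RA samples, at 0.358 to 0.485 CPM, lay above all RA samples, with a log2 difference of 1.25 ± 0.56 that was not called (adjusted p 0.0678). With the replicate block it was called (1.29, adjusted p 0.0124), as was the difference between PB+RA and PB (-0.93 without the block, adjusted p 0.113; -0.89 with it, adjusted p 0.0263).

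NGFR (chromosome 17, 47572655 to 47592370, GRCh37) encodes p75NTR. It stood at 139, 112, 72.5 and 77.5 CPM in DMSO replicates 1 to 4 and at 306, 297, 184 and 175 in PB. In RA it stood at 393, 370, 165 and 207 CPM, and in PB+RA at 809, 777, 412 and 430. All samples of each treated group lay above all DMSO samples, and all PB+RA samples above all samples of either single agent. NGFR rose by 1.26 ± 0.34 on the log2 scale under PB (adjusted p 0.00539) and by 1.49 ± 0.34 under RA (adjusted p 0.00347), while both agents together raised it by 2.57 ± 0.35 (adjusted p 1.14e-05), which is 5.94-fold. It was higher in PB+RA than in PB by 1.31 ± 0.33 (adjusted p 0.00653) and than in RA by 1.08 ± 0.33 (adjusted p 0.0127). The last call was lost without PB+RA replicate 1 (0.88, adjusted p 0.0523).

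Within groups, NGFR differed by replicate set. Replicates 1 and 2 stood above replicates 3 and 4 in every group, at 1.68 times their mean in DMSO, 1.68 in PB, 2.05 in RA and 1.88 in PB+RA. Within either set all 5 differences were called, with log2 values in replicates 1 and 2 of 1.25 for PB, 1.59 for RA and 2.63 for PB+RA over DMSO, and in replicates 3 and 4 of 1.22, 1.25 and 2.42. The level thus differed between the sets, while the log2 differences between groups were close in both. NGFR exons overlap an unnamed gene model on the opposite strand over 924 bases and NGFR-AS1 over 202, and which strand the counts were taken from is not stated.

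RET (chromosome 10, 43572512 to 43625799, GRCh37) encodes the signalling kinase of the GDNF family. It stood at 1612, 1472, 1476 and 1534 CPM in DMSO and at 1844, 1668, 1628 and 1598 in PB. In RA it stood at 2032, 1858, 2068 and 2027 CPM, and in PB+RA at 2796, 2509, 2531 and 2589. The 4 PB+RA samples lay above all 12 other samples, and the RA samples above all DMSO and PB samples. RET rose with PB+RA by 0.75 ± 0.052 on the log2 scale (adjusted p 2.28e-09), from 1524 ± 65.5 to 2607 ± 131 CPM, or 1.68-fold.

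With RA the RET difference was 0.38 ± 0.052 (adjusted p 4.45e-05) and with PB 0.15 ± 0.052 (adjusted p 0.0266), both under the fold minimum. PB+RA exceeded PB by 0.60 (adjusted p 2.96e-07), which was called, and RA by 0.37 (adjusted p 1.83e-05), which was under the minimum. RET had the smallest standard errors of the 8 genes. In replicates 1 and 2 alone PB+RA exceeded DMSO by 0.75, and in replicates 3 and 4 alone by 0.70.

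GFRA1 (chromosome 10, 117816436 to 118036315, GRCh37) encodes the co-receptor that binds GDNF. It stood at 0.957, 1.14, 0.569 and 1.01 CPM in DMSO and at 4.91, 7.08, 9.31 and 11.0 in RA. In PB it stood at 0.601, 0.435, 0.380 and 0.634 CPM, and in PB+RA at 0.914, 0.886, 1.05 and 1.84. The RA samples stood apart from all others, and PB+RA samples reached only the upper part of the DMSO range and beyond in replicate 4. GFRA1 rose with RA by 3.13 ± 0.28 on the log2 scale, 8.77-fold (adjusted p 7.62e-07), whereas with PB+RA its change was 0.32 ± 0.31 (adjusted p 0.379, 95% interval -0.29 to 0.93). It was lower in PB+RA than in RA by 2.81 ± 0.28 (log2 -2.81, adjusted p 3.20e-07). The replicate sets differed in the GFRA1 change with PB+RA over DMSO. It was -0.24 in replicates 1 and 2 alone (adjusted p 0.535) and 0.80, a call, in replicates 3 and 4 alone (adjusted p 0.0490). The rise with RA was called in both sets, at 2.51 and 3.65.

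Against PB, GFRA1 was higher in PB+RA by 1.13 ± 0.35 (adjusted p 0.0167), a call lost without PB+RA replicate 4 (0.87, adjusted p 0.0592) and in replicates 1 and 2 alone (0.77, adjusted p 0.151). Its difference between PB and DMSO was -0.81 ± 0.35 (adjusted p 0.0599). That difference passed without DMSO replicate 3 (-1.02, adjusted p 0.0243) and under the replicate block (-0.81, adjusted p 0.0306). GFRA1 exons overlap an unnamed gene model on the opposite strand over 421 bases.

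GFRA2 (chromosome 8, 21547910 to 21669869, GRCh37) encodes the co-receptor that prefers neurturin. It stood at 73.4, 58.2, 113 and 107 CPM in DMSO and at 81.7, 48.3, 65.2 and 72.2 in RA. In PB it stood at 49.9, 43.8, 92.2 and 87.8 CPM, and in PB+RA at 72.2, 64.5, 90.2 and 89.4. The 4 groups overlapped. The log2 differences from DMSO were -0.36 with PB, -0.40 with RA and -0.18 with PB+RA (adjusted p 0.272, 0.256 and 0.563), with 95% intervals of -0.87 to 0.16, -0.92 to 0.11 and -0.69 to 0.33. Part of this width was between replicate sets, since replicates 1 and 2 stood at 0.60 of the mean of replicates 3 and 4 in DMSO and at 0.521 in PB, but at 0.946 in RA. In replicates 3 and 4 alone the RA difference was -0.73 (adjusted p 4.17e-08), and in replicates 1 and 2 alone it was -0.02.

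GFRA3 (chromosome 5, 137588069 to 137610310, GRCh37) encodes the co-receptor of artemin. It stood at 0.851, 1.30, 0.664 and 0.426 CPM in DMSO and at 2.05, 4.53, 0.791 and 0.901 in RA. In PB it stood at 0.944, 1.93, 0.856 and 1.13 CPM, and in PB+RA at 0.477, 0.709, 0.162 and 0.359. Every PB+RA sample lay below every RA and PB sample, and RA replicates 1 and 2 were the highest of their group. GFRA3 was lower in PB+RA than in RA (log2 -2.29 ± 0.57, adjusted p 0.00315), and by less, though still called, without RA replicate 2, the highest sample (-1.58, adjusted p 0.0135).

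Its difference with RA over DMSO was 1.35 ± 0.52 (adjusted p 0.0538), with PB+RA over DMSO -0.94 ± 0.62 (adjusted p 0.189) and with PB+RA over PB -1.53 ± 0.60 (adjusted p 0.0569). All 3 of these GFRA3 differences were called with the replicate block, at 1.22, -0.996 and -1.57 (adjusted p 0.000513, 0.0128 and 0.000496). The RA difference was 0.61 without RA replicate 2 (adjusted p 0.318), and leaving out RA replicate 3 (1.60), RA replicate 4 (1.56) or DMSO replicate 2 (1.65) made it a call. In DMSO GFRA3 replicates 1 and 2 stood at 1.98 times the mean of replicates 3 and 4, and in RA at 3.89 times. The 3 GFRA genes were also compared as shares of their sum per kilobase. GFRA2 made up 96.4 ± 2.49% of this sum in DMSO, 93.9 ± 3.99% in PB, 85.9 ± 7.98% in RA and 97.6 ± 1.09% in PB+RA (SD, n = 4). The share of GFRA1 was 0.610 ± 0.304% in DMSO and 5.79 ± 2.00% in RA, and GFRA2 was the main GFRA transcript in every sample.

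ALK (chromosome 2, 29415640 to 30144452, GRCh37) stood at 8.76, 7.42, 7.50 and 8.98 CPM in DMSO and at 6.76, 5.09, 4.41 and 4.87 in RA. In PB it stood at 12.8, 9.97, 8.41 and 9.87 CPM, and in PB+RA at 11.5, 10.9, 7.92 and 8.40. All RA samples lay below all samples of every other group. ALK fell with RA by 0.64 ± 0.16 on the log2 scale (adjusted p 0.00583) and was higher in PB+RA than in RA by 0.85 ± 0.16 (adjusted p 0.000271). Its differences from DMSO were 0.33 with PB and 0.22 with PB+RA (adjusted p 0.0852 and 0.229). In replicates 1 and 2 alone the RA difference was -0.46 and was not called (adjusted p 0.0873). ALK exons overlap those of CLIP4 on the opposite strand over 135 bases, and CLIP4 was more abundant (49.4 against 8.34 CPM on average over the 16 samples), so the counts of ALK are uncertain.

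KIT (chromosome 4, 55523434 to 55606949, GRCh37) had 1 count over the 4 DMSO samples, 4 over the PB samples, 3 over the RA samples and 0 in PB+RA. No sample had more than 2. At this depth no difference in KIT was detectable.

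**Figure D2:**
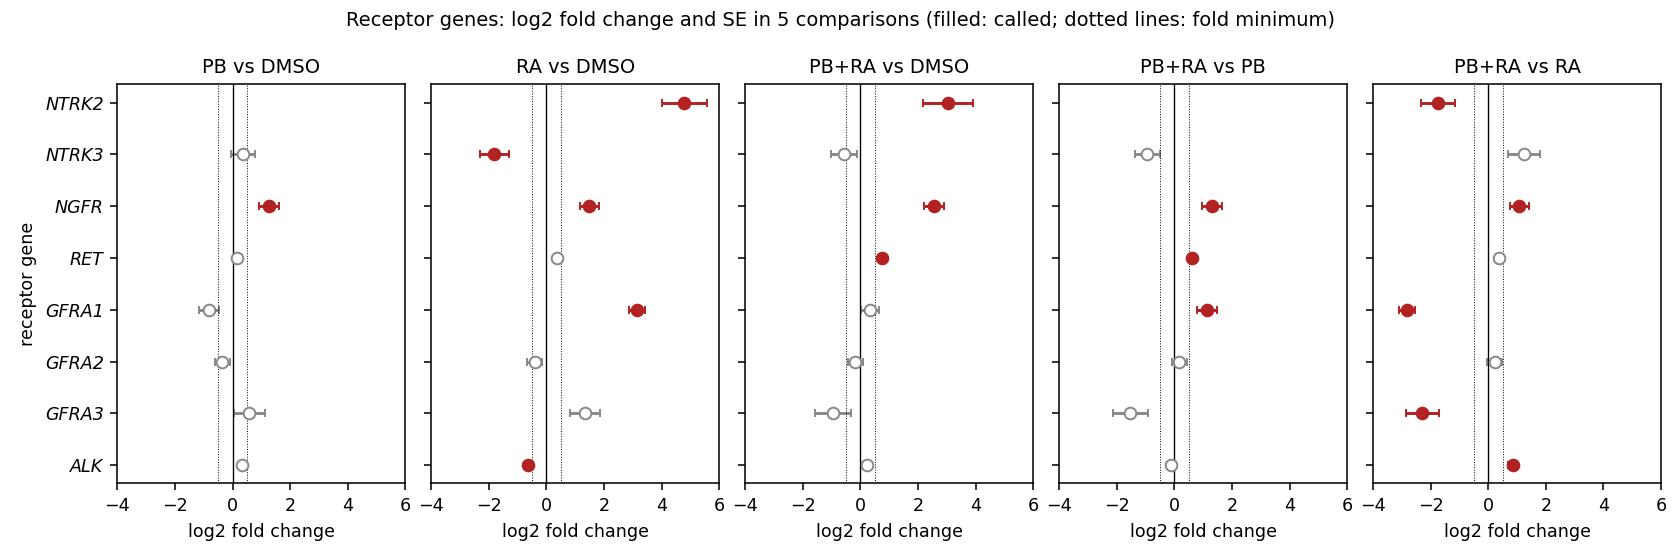
Log2 fold change (horizontal axis) of the 8 tested receptor genes in the 5 comparisons; bars are the SE, filled points were called, dotted lines mark the fold minimum of 0.5, and values for NTRK2 against PB, where it had 0 counts, are not drawn. Filled points lie on both sides of 0 with RA (3 higher, 2 lower) and between PB+RA and RA (2 higher, 3 lower).

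The design also asked whether PB+RA differed from the sum of both single log2 fold changes. A negative value of this difference means that PB+RA lay below the sum. Of the 8 receptor genes, 0 were called above the sum and 2 below it, GFRA1 and GFRA3, where 0.415% and 3.02% of all tested genes were called above and below. For GFRA1 the sum of the single changes exceeded the PB+RA change (-2.00 ± 0.46, adjusted p 0.0163). This call was lost without PB replicate 1 (-1.88, adjusted p 0.0538) and in replicates 1 and 2 alone (-1.74, adjusted p 0.0670).

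For GFRA3 the difference was -2.87 ± 0.79 (adjusted p 0.0465), and the call was lost in 12 of the 16 fits that left out a sample, while the replicate block kept it (-2.79, adjusted p 9.01e-05). The call was kept without DMSO replicate 2, RA replicate 3, RA replicate 4 or PB+RA replicate 2. Of the 12 fits that lost it, the smallest size was -2.14 without RA replicate 2 (adjusted p 0.0849) and the highest adjusted p 0.101 without PB replicate 2 (-2.56). NGFR lay within its error of the sum (-0.18 ± 0.47, adjusted p 0.903). RET lay above it by 0.22 ± 0.074 (adjusted p 0.104), and ALK by 0.52 ± 0.22 (adjusted p 0.216), which the replicate block called (0.54, adjusted p 0.0130).

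**Figure D3:**
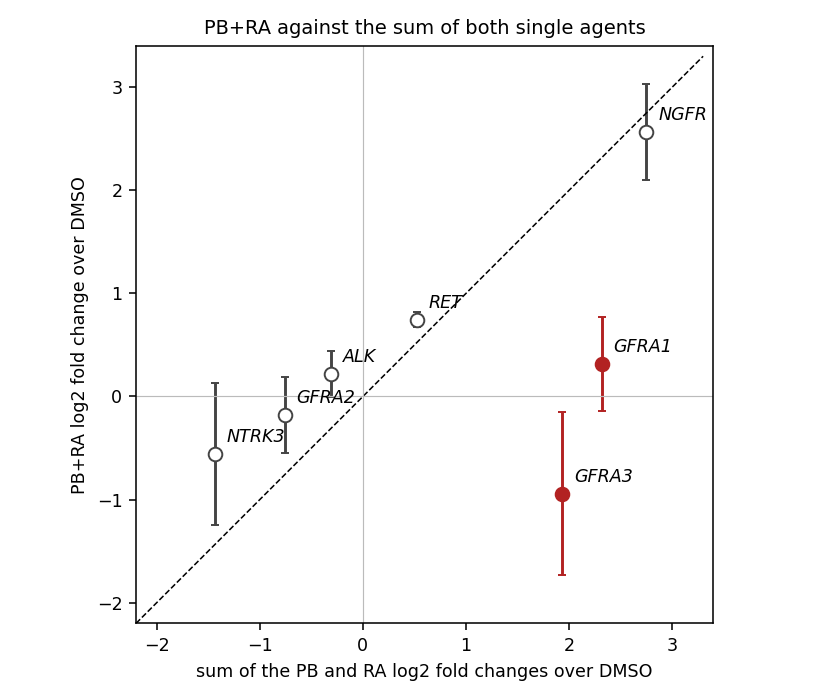
PB+RA log2 fold change over DMSO (vertical axis) against the sum of the PB and RA log2 fold changes (horizontal axis) for 7 receptor genes; bars are the SE of the difference from that sum, the dashed line is equality, filled points were called, and NTRK2 is left out because it had 0 counts in PB. NGFR lies near the line, and GFRA1 and GFRA3 lie below it by 2.00 and 2.87.

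The sister receptors were described next, from lists of pathway genes. Of 4 listed, 3 had a row in the table and 2 were tested (LTK and NCAM1), while GFRA4 had 1 count in all. PB raised both, RA raised 0 and PB+RA raised both, with medians of 0.89, 0.12 and 1.28 on the log2 scale. PB raised 16.9% of all tested genes, RA raised 10.8% and PB+RA raised 24.0%.

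LTK, the kinase nearest to ALK in sequence, stood at 99.6 ± 17.5 CPM in DMSO, at 195 ± 17.9 in PB and at 307 ± 37.7 in PB+RA, and both rises were called (log2 0.97 and 1.60, adjusted p 9.24e-05 and 3.17e-07). The PB call of LTK was lost in replicates 1 and 2 alone (0.99). Its RA level was 88.5 ± 19.4 CPM (log2 -0.18, adjusted p 0.406). NCAM1, an adhesion molecule that can also bind GDNF, rose from 389 ± 19.4 to 677 ± 36.2 CPM in PB and 768 ± 51.9 in PB+RA (log2 0.80 and 0.95, adjusted p 1.75e-08 and 5.84e-10), and its RA difference was 0.43 (adjusted p 5.20e-05), under the fold minimum.

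Of the 4 neurotrophin and sortilin-family genes tested out of 7 listed, PB raised 2, RA raised 1 and PB+RA raised 1, beside 16.9%, 10.8% and 24.0% of all tested genes, and 0 fell. NTF3 and NTF4 had at most 3 counts in any sample and were not tested. BDNF, the TrkB ligand, stood at 1.09 ± 0.476 CPM in DMSO, 1.64 ± 0.175 in PB, 0.712 ± 0.199 in RA and 1.27 ± 0.368 with both, and passed the test with none of the treatments (adjusted p 0.0838 to 0.575). Among the sortilin-family receptors, SORCS2, which can pair with p75NTR, stood at 5.70 ± 1.18 CPM in DMSO, 9.60 ± 1.96 in PB, 16.4 ± 1.75 in RA and 43.7 ± 12.1 in PB+RA. The 4 SORCS2 groups did not overlap, and it rose by 0.75, 1.51 and 2.91 on the log2 scale with PB, RA and PB+RA (adjusted p 0.00422, 2.79e-05 and 2.06e-09). SORCS1 rose with PB (0.55, adjusted p 4.18e-06), which was lost under the fold minimum without PB replicate 1 or 2 (lowest value over all alternatives 0.36). SORT1, another p75NTR partner, stayed under the fold minimum with each treatment.

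All 4 ligands of the GDNF family were tested. PB raised 1 and lowered 1, RA raised 3 and PB+RA raised 2, and the median log2 change was 0.26, 1.14 and 0.97. Of all tested genes, PB raised 16.9% and lowered 11.3%, RA raised 10.8% and PB+RA raised 24.0%. GDNF stood at 1.35, 2.16, 1.49 and 1.55 CPM in DMSO and at 5.75, 4.98, 5.89 and 6.65 in PB. In RA it stood at 4.10, 3.07, 5.46 and 5.59 CPM, and in PB+RA at 3.38, 3.37, 10.6 and 9.02. Each of the 12 treated samples exceeded the highest DMSO sample. GDNF rose by 1.84 ± 0.35 with PB, 1.47 ± 0.35 with RA and 1.98 ± 0.35 with PB+RA (adjusted p 0.00036, 0.00431 and 0.000111).

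NRTN, which encodes neurturin, moved otherwise. It stood at 0.780 ± 0.206 CPM in DMSO and 0.111 ± 0.105 in PB, where 10 counts were found over 4 samples, and it fell with PB by 2.72 ± 0.61 on the log2 scale (adjusted p 0.00118). With RA and PB+RA its differences were 0.19 and -0.29 (adjusted p 0.765 and 0.579). ARTN and PSPN rose with RA by 1.38 and 0.91 (adjusted p 0.0337 and 0.0465), and PSPN with PB+RA by 1.20 (adjusted p 0.00424). The PB+RA call of PSPN was lost in replicates 1 and 2 alone (0.94). Both RA calls rest on at most 22 counts a sample. The ARTN call was lost on leaving out DMSO replicate 1, DMSO replicate 2, RA replicate 2, RA replicate 3 or RA replicate 4 (lowest value over all alternatives 1.09), and the RA call of PSPN on leaving out any single DMSO or RA sample but DMSO replicate 1 and RA replicate 3, and by DESeq2 (lowest value over all alternatives 0.64). PSPN exons overlap the more abundant ALKBH7 on the opposite strand (21.6 against 0.494 CPM).

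Of 6 genes for ALK and KIT ligands and the phosphatase receptor PTPRZ1, 3 were tested. ALKAL1 and ALKAL2, which encode the activating ligands of ALK, had at most 3 counts in any sample. PTN and MDK, which encode the heparin-binding factors pleiotrophin and midkine, were abundant. PTN stood at 968 ± 61.7 CPM in DMSO, 762 ± 30.9 in PB, 790 ± 33.0 in RA and 391 ± 46.4 with both, and fell with PB+RA by 1.34 ± 0.073 on the log2 scale (adjusted p 1.23e-10). Its single-agent differences were -0.34 and -0.30, under the fold minimum, and PB+RA lay below their sum (-0.69, adjusted p 0.00104). MDK rose with RA from 347 ± 10.4 to 602 ± 28.7 CPM (log2 0.79, adjusted p 1.57e-07). KITLG, which encodes stem cell factor, rose with RA from 0.706 ± 0.376 to 3.49 ± 1.66 CPM (log2 2.28 ± 0.55, adjusted p 0.00482), and with PB+RA by 1.42 (adjusted p 0.0374), which was lost on leaving out DMSO replicate 1, DMSO replicate 2, PB+RA replicate 3 or PB+RA replicate 4 (lowest value over all alternatives 0.78).

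**Figure D4:**
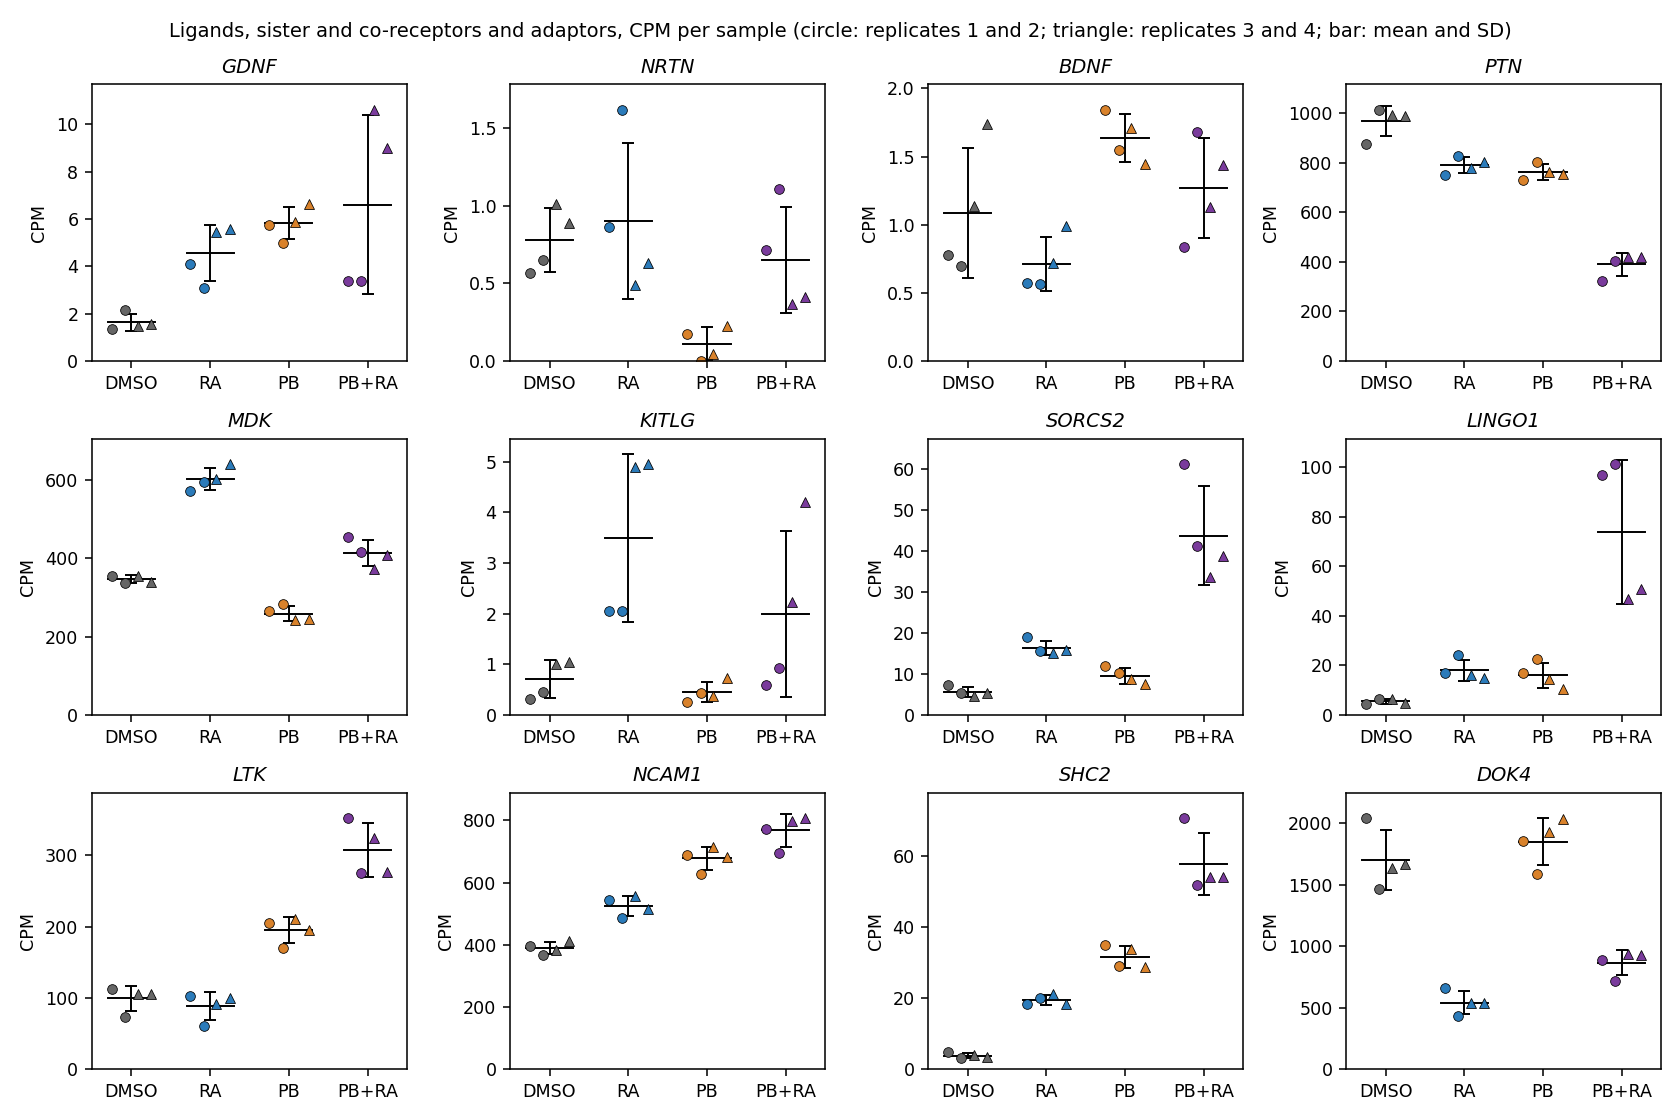
CPM (vertical axis, from 0, a scale per gene) of 12 ligands, sister receptors, co-receptors and adaptors in each of the 16 samples, by group; circles are replicates 1 and 2, triangles replicates 3 and 4, and the bars the mean and SD of 4 samples. SORCS2, LINGO1, LTK and SHC2 stood highest in PB+RA, where PTN stood lowest, and DOK4 stood lowest in RA.

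Of 8 partners of p75NTR, all tested, PB raised 3 and lowered 1, RA raised 2 and PB+RA raised 3 (medians 0.45, 0.19 and 0.46), where PB raised 16.9% of all tested genes and lowered 11.3%, RA raised 10.8% and PB+RA 24.0%. LINGO1, which forms a receptor complex with p75NTR and the Nogo receptor, stood at 5.58 ± 1.04 CPM in DMSO, 16.1 ± 5.01 in PB, 18.0 ± 4.28 in RA and 73.9 ± 29.1 in PB+RA. It rose by 1.53 with PB, 1.68 with RA and 3.70 with PB+RA (adjusted p 0.000617, 0.00066 and 5.68e-08), and the PB+RA samples lay above all others. KIDINS220, a scaffold bound by Trk receptors and p75NTR, rose with PB+RA (0.84, adjusted p 1.29e-06) and with PB (0.57, adjusted p 0.000119), the latter not after the GC and length correction (0.44). RIPK2, a kinase that binds the p75NTR death domain, fell with PB by 0.75 (log2 -0.75, adjusted p 2.62e-06). These 3 genes were picked after their values were seen.

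Of 24 adaptor genes, 22 were tested. PB raised 4 and lowered 2, RA raised 5 and lowered 1, and PB+RA raised 9 and lowered 4 (medians 0.14, 0.18 and 0.30). The matching shares of all tested genes were 16.9% higher and 11.3% lower under PB, 10.8% and 2.54% under RA, and 24.0% and 17.9% under both. SHC2, a phosphotyrosine adaptor of neurons, stood at 3.86 ± 0.776 CPM in DMSO, 31.6 ± 3.17 in PB, 19.5 ± 1.41 in RA and 57.6 ± 8.72 in PB+RA, with log2 rises of 3.02, 2.32 and 3.86 (largest adjusted p 5.82e-09). Its groups did not overlap, and PB+RA lay below the sum of the single changes (-1.48, adjusted p 0.000319), a call lost in replicates 1 and 2 alone (-1.34). GAB2, a docking protein for PI3-kinase and SHP2, rose with each treatment (PB 0.61, RA 0.93, PB+RA 1.09; largest adjusted p 0.000163), and its PB call was lost without PB replicate 3, at or just under the fold minimum.

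SHC1, the widely used adaptor of Trk receptors and RET, rose with RA and PB+RA (0.57 and 0.62, adjusted p 0.000136 and 1.19e-05), neither of them after the GC and length correction (0.47 and 0.499). SHC4, a relative of SHC1, rose with RA from 0.815 to 2.02 CPM in DMSO to 2.79 to 5.31 CPM (lowest to highest sample, adjusted p 0.0173) and with PB+RA by 1.74 (adjusted p 0.00109), and its RA call was lost without DMSO replicate 1, DMSO replicate 2 or RA replicate 3. SH2B3, an adaptor also called LNK, rose by 0.53 and 0.52 with RA and PB+RA (adjusted p 2.47e-05 and 4.23e-06), just past the fold minimum, and 6 and 11 alternatives respectively ended these calls. DOK6, a docking protein of RET, rose with PB (0.93, adjusted p 1.08e-06) and PB+RA (0.51, adjusted p 0.000279), and the latter call was lost in 9 alternatives. IRS2, an insulin receptor substrate, rose with PB and PB+RA (0.65 and 0.55, adjusted p 0.00111 and 0.00291), but the GC and length correction ended the PB call and 6 alternatives the PB+RA call. In each of these genes the called groups lay wholly above DMSO.

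DOK4, a docking protein of RET, fell with RA from 1702 ± 242 to 542 ± 91.1 CPM (log2 -1.66, adjusted p 2.74e-07) and stood at 867 ± 102 in PB+RA (log2 -1.001, adjusted p 4.13e-06). With PB it stood at 1848 ± 192 CPM (adjusted p 0.440). IRS1, an insulin receptor substrate, fell with PB (-0.92, adjusted p 4.05e-06) and PB+RA (-1.60, adjusted p 3.66e-09), as did DOK1 (-0.93 and -1.02, adjusted p 2.52e-05 and 5.07e-06), whose exons overlap the more abundant LOXL3 on the opposite strand. Of 7 genes of receptor turnover, all tested, PB raised 1 and lowered 2, RA raised 2 and PB+RA raised 3 and lowered 2 (medians 0.07, 0.27 and 0.31), beside 16.9% higher and 11.3% lower under PB, 10.8% higher under RA, and 24.0% and 17.9% under both, over all tested genes. SH3KBP1, an endocytic adaptor of CBL, rose with RA (1.24, adjusted p 6.48e-06) and PB+RA (1.25, adjusted p 5.89e-07). CD2AP, its relative, fell with PB (-0.59, adjusted p 1.98e-05) and PB+RA (-0.79, adjusted p 4.24e-07). NEDD4, a ubiquitin ligase, fell with PB (-0.95, adjusted p 1.45e-05) and PB+RA (-1.14, adjusted p 1.05e-06), and its relative NEDD4L rose with PB, RA and PB+RA (0.69, 0.61 and 1.17, adjusted p 1.46e-05, 0.000147 and 1.45e-08). The GC and length correction and replicates 3 and 4 alone ended both single-agent calls of NEDD4L, and leaving out DMSO replicate 1 ended that with RA.

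The genes whose log2 CPM ran most like that of a receptor gene over the 16 samples were taken from 9999 genes that averaged 10 CPM or more. For RET they were SORCS2 (Pearson r = 0.988) and DGKQ (0.985), for NTRK2 TPST1 (0.981) and PCAT14 (0.972), and for NGFR PLD3 (0.977) and KCNMA1 (0.966). GFRA1 ran most like NYNRIN (0.969) and STAMBPL1 (0.966), ALK like G6PC3 (0.943) and SEC24C (0.939), NTRK3 like ARHGEF28 (0.909) and SAMHD1 (0.905), and GFRA3 like ERGIC1 (0.905) and LZTS1 (0.894). These are descriptions over 16 samples that share 4 groups, replicate sets and library scaling.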

How the data were processed

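Polyadenylated RNA of 16 SK-N-BE(2)C samples was sequenced from directional libraries with paired ends. Per the labels and methods, the authors trimmed reads with Trim Galore 0.6.4, aligned them to hg19 with STAR (2.6.1d in the processing notes, while the methods name another release) and deposited raw counts per gene, without normalization. The annotation release and the strand taken for the counts are not given in the sources used here, so opposite-strand overlaps make counts uncertain. CPM, as deposited, were each count over its sample total (in M), and they are printed as levels. The deposited table of the authors' DESeq2 1.32.0 comparisons (log2 fold changes and p-values) was not used.

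Groups and replicate numbers came from the sample titles. Counts were fitted in R 4.3.3 with edgeR 4.0.16: filterByExpr (15415 genes kept), TMM factors and a robust quasi-likelihood fit of all 16 samples, with group as the only term. Adjusted p-values are from that test with Benjamini-Hochberg adjustment over all tested genes unless another tool is named, and calls also needed an absolute log2 fold change above 0.5. SE is the absolute log2 fold change over the square root of F. The 95% intervals apply the normal quantile to that SE, so they are narrower than the F test would give. Alternatives were DESeq2 1.42.0 (unshrunken), RLE size factors, other filters (none, or a mean of at least 1 CPM), no fold minimum, a GC and length correction, fits of only the groups compared, fits within replicate sets, leaving out each sample and a replicate block. Gene spans and exon lengths are GENCODE models on GRCh37, and start regions are RefSeq on GRCh38.p14 (NGFR was not matched). The code was tested on simulated data. Over all genes, deviations from group means correlated in all 24 pairs of same-numbered samples (r 0.330 to 0.573). The numbers come from the titles, and samples with different numbers were not compared. Whether single numbers pair the samples beyond the replicate sets was therefore not tested.

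Some genes of the lists are not reported here and were left out of list counts and sums. The receptor genes, the lists and the tests were chosen with earlier results of these data known. Named were all 9 receptor genes, the ligands and co-receptors of the lists, and adaptor or turnover genes called in the same direction with PB+RA and a single agent without overlap with DMSO. No such rule held for the p75NTR partners. LINGO1, KIDINS220 and RIPK2 were picked after their values were seen, and RTN4R and TRAF6, also called, were not described. The 2 likest genes were named for each receptor gene called in a comparison.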

Additional observations from a re-analysis of the deposited data

Results flagged for a closer look

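The effect of RA on 2 receptor genes differed between cells with and without PB by a test of the difference itself (edgeR quasi-likelihood test with Benjamini-Hochberg adjustment). For GFRA1 the RA change in the presence of PB was lower by a log2 of -2.00 ± 0.46 (adjusted p 0.0163), and for GFRA3 by -2.87 ± 0.79 (adjusted p 0.0465). In both genes replicates 1 and 2 alone lost the call (adjusted p 0.0670 and 0.0532) and replicates 3 and 4 alone kept it (adjusted p 0.0134 and 0.0137). The 32 groups of 4 checked were those in which 1 of the 9 receptor genes had more than 3 counts in all. They included KIT in PB but not NTRK2 in PB. No sample in them stood far enough from its neighbour, relative to its group's range, to pass Dixon's 95% critical value for 4 samples.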

How the results depend on the processing

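Over 48 receptor gene comparisons, 835 alternative values kept direction and call, 39 became called, 27 lost the call and 8 changed sign, all 8 in differences that were not called. The sign changes were for NTRK3 with PB without PB replicate 4 (-0.028, with 0.59 at the other end of the range over samples left out), NGFR against the sum of single changes without RA replicate 1 (0.063, other end -0.35), ALK in PB+RA against PB without PB replicate 1 (0.020, other end -0.21), and, with PB+RA over DMSO, for NTRK3 (0.049), GFRA1 (-0.24) and GFRA2 (0.026) in replicates 1 and 2 alone and ALK (-0.077) in replicates 3 and 4 alone. GFRA2 in PB+RA against PB was -0.029 in replicates 3 and 4 alone. The count of receptor genes called with PB was 1, but 3 with the replicate block and by DESeq2, 2 with the GC and length correction, only the groups compared, either replicate set or no fold minimum, and 1 to 2 when a sample was left out. With RA it was 5, and 4 to 6 over the alternatives. With PB+RA it was 3, but 5 in replicates 3 and 4 alone, 4 with the replicate block and 2 with only the groups compared. Between PB+RA and PB it was 4, and 3 to 6 over the alternatives (6 with the block). Between PB+RA and RA it was 5, but 6 with the block, in replicates 1 and 2 alone or with no fold minimum, 4 without a filter, and 3 to 5 when a sample was left out (3 without PB+RA replicate 1). Against the sum of single changes it was 2, but 1 with RLE size factors or without a filter, 0 in replicates 1 and 2 alone, 4 in replicates 3 and 4 alone, 3 with the block, and 0 to 2 when a sample was left out. The replicate block ended none of the receptor gene calls, and those it added stand beside their values.

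Of 90 calls for partner genes put through the alternatives, 56 were kept in every alternative and 0 changed sign. The calls of FRS3, SH2B2, CRKL and LRIG1, which enter the list counts, were not put through them. These alternatives for partner genes were chosen after seeing the data. With only the groups compared, NTRK2 could not be fitted between PB and DMSO or between PB+RA and DMSO or PB. The same held for NTRK3 between RA and DMSO or PB+RA, and for NTRK3 at a mean of at least 1 CPM. In each case the gene did not pass the filter. Low counts limited NTRK2, NTRK3, GFRA1 and GFRA3, with at most 247 counts in any sample, and KIT could not be tested.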
